A study of Homo sapiens with 3 samples.

Results

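The region examined was the 10 Mb of chromosome 11 at chr11:60000000-70000000 (hg19 build), which spans bands 11q12 to 11q13. Its members were all peaks of the XPB and XPD lists whose summit fell between those positions, whatever their height or score. They numbered 511 of the 36125 peaks in the series, 277 of 21555 in the XPB list and 234 of 14570 in the XPD list. The comparison set was the rest of chromosome 11 above 2 Mb, with 814 XPB and 531 XPD peaks over 122.4 Mb up to the last summit on the chromosome.

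The data came from chromatin immunoprecipitation followed by sequencing (ChIP-seq) in HT1080, an established human fibrosarcoma cell line grown in MEM-alpha with 5% FBS, without any treatment named in the labels. There was 1 library from a rabbit polyclonal antibody to XPB, 1 from a rabbit polyclonal antibody to XPD, and 1 input library, all from 1 pool of formaldehyde-crosslinked chromatin. The input had no peak list among the files used, so no count or height here was set against it. Whether the caller scored the peaks against the input is not given. With 1 library per antibody there was no replicate and no test between antibodies, and the 95% intervals below cover counting error only. Peaks of 1 library lie in clusters and are not independent, so the true uncertainty is wider than these intervals. An antibody to another protein, CSB, appears in the protocol text of every sample, and the antibody field of each sample was followed instead.

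XPB and XPD are the ATP-driven subunits of TFIIH, the general factor that RNA polymerase II needs to start transcription. XPB acts as a DNA translocase that opens the promoter, and XPD is the helicase that unwinds DNA around a lesion in nucleotide excision repair. TFIIH is loaded at promoters of active genes, and gene-rich chromosome bands hold many of them. Bands 11q12 to 11q13 are known for housekeeping genes such as FTH1 (ferritin heavy chain), CFL1 (the actin-severing protein cofilin) and SF1 (a splicing factor), for the nuclear RNAs NEAT1 and MALAT1, for the U2 snRNA gene RNU2-2, for the damage-recognition gene DDB1, the flap nuclease gene FEN1 and the cyclin gene CCND1. They also hold families that few tissues use, such as the lymphocyte gene MS4A1 and the kidney transporter gene SLC22A6.

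The label of a gene-dense region could be checked only by gene order. In the RefSeq gene table, which is of another assembly (GRCh38.p14), the run of genes from MS4A1 to FGF3 held 275 of the 1301 protein-coding genes listed for chromosome 11, or 21.1%. Of all genes listed for the chromosome, the run held 483 of 3171, or 15.2%. The same run held 12.1% of the lncRNA genes, 25.5% of the miRNA genes and 21.9% of the snoRNA genes listed for the chromosome. The run's share of the chromosome's length is not given, so these shares are not densities. How this run lines up with the hg19 borders of the region was not determined. No hg19 annotation or sequence was used, so no peak below is assigned to a gene and no peak sequence is shown.

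Both proteins had several times more peaks per Mb in the region than elsewhere on the chromosome. The XPB list had 27.7 peaks per Mb in the region and 6.65 per Mb in the rest, a ratio of 4.16 (95% interval 3.62 to 4.78). For XPD the densities were 23.4 and 4.34 per Mb, a ratio of 5.39 (4.60 to 6.30). Of all peaks on chromosome 11, the region had 24.98% for XPB and 29.9% for XPD. XPB peaks covered 26.8 kb of each Mb in the region and 5.84 kb in the rest, and XPD peaks covered 24.9 and 4.24 kb. The excess grew with the score of the peaks counted, but the score cuts are nested and successive intervals overlapped in both lists. Among peaks scoring at least 200 the XPB ratio was 5.13 (4.18 to 6.28) and the XPD ratio 7.03 (5.52 to 8.91). Among those scoring at least 300 the ratios were 6.59 (4.77 to 9.03) and 9.07 (5.87 to 13.9). Much of this growth lay in the block at chr11:64000001-66000000. Without it, 15.6% (10.7 to 21.8) of the region's XPB peaks and 12.9% (7.96 to 19.4) of its XPD peaks scored at least 300. In the rest these shares were 14.4% and 10.2%, inside those intervals.

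Peaks were spread unevenly over the 20 windows of 500 kb, with a crest near the middle. The window at chr11:65000001-65500000 held 36 XPB and 34 XPD peaks, the most of any window of the chromosome above 2 Mb in either list. The next windows by XPB number were chr11:64500001-65000000 with 24 XPB and 16 XPD peaks, chr11:62000001-62500000 with 22 and 18, and chr11:65500001-66000000 with 21 and 23. These same 4 windows were also the 4 richest in XPD peaks. At the low end, chr11:60000001-60500000 held no peak of either list. The window at chr11:63000001-63500000 followed with 4 XPB and 7 XPD peaks, and chr11:69500001-70000000 had 5 and 11. In the XPD list the poorest windows after the empty one were chr11:68500001-69000000 with 4 peaks (7 for XPB) and chr11:67500001-68000000 with 5 (10 for XPB).

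**Figure D1:**
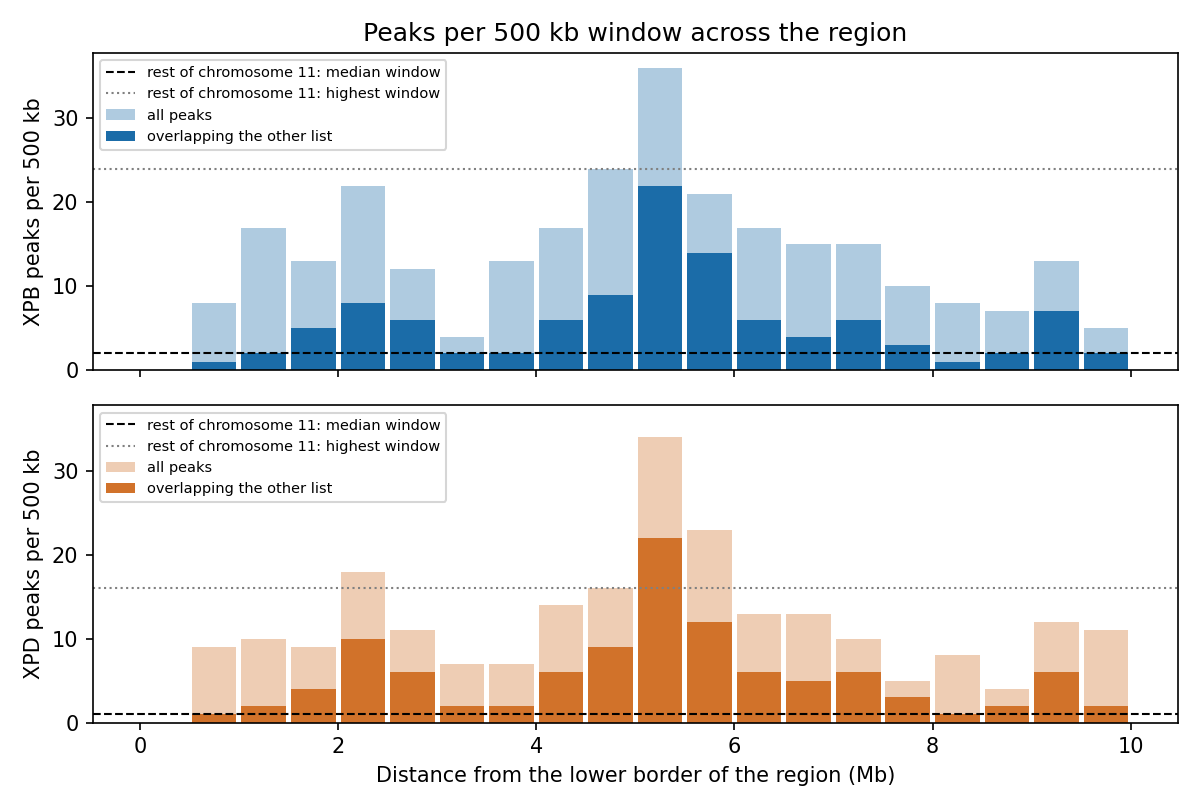
Number of XPB peaks (upper panel) and XPD peaks (lower panel) in each 500 kb window of the region, by distance in Mb from its lower border; the dark part of each bar is the peaks that overlap the other list, and lines mark the median and highest windows in the rest of chromosome 11. The crest of 36 XPB and 34 XPD peaks lies 5 Mb from the border, and the first window is empty.

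The region's typical window lay near the top of those elsewhere on the chromosome. The median window held 13 XPB peaks (quartiles 8 and 17) in the region and 2 (0 and 5) in the rest, where 85 of 245 windows had no XPB peak. The XPD median was 10.5 (7.75 and 13.2) in the region and 1 (0 and 3) in the rest. At least 10 XPB peaks were found in 14 of the 20 windows of the region and in 20 of 245 in the rest. For XPD these counts were 12 of 20 and 6 of 245. Outside the region the XPB number was highest at chr11:12000001-12500000, with 24 XPB and 15 XPD peaks, equal to the second richest window of the region. The XPD number outside was highest at chr11:118500001-119000000, with 16 XPD and 17 XPB peaks. Counts of both lists moved together across the region's windows, with Spearman's rho 0.84 over 20 windows, compared with 0.83 over 245 windows in the rest. These are descriptions across windows of the same 2 libraries, and 70 windows of the rest had no peak in either list.

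**Figure D2:**
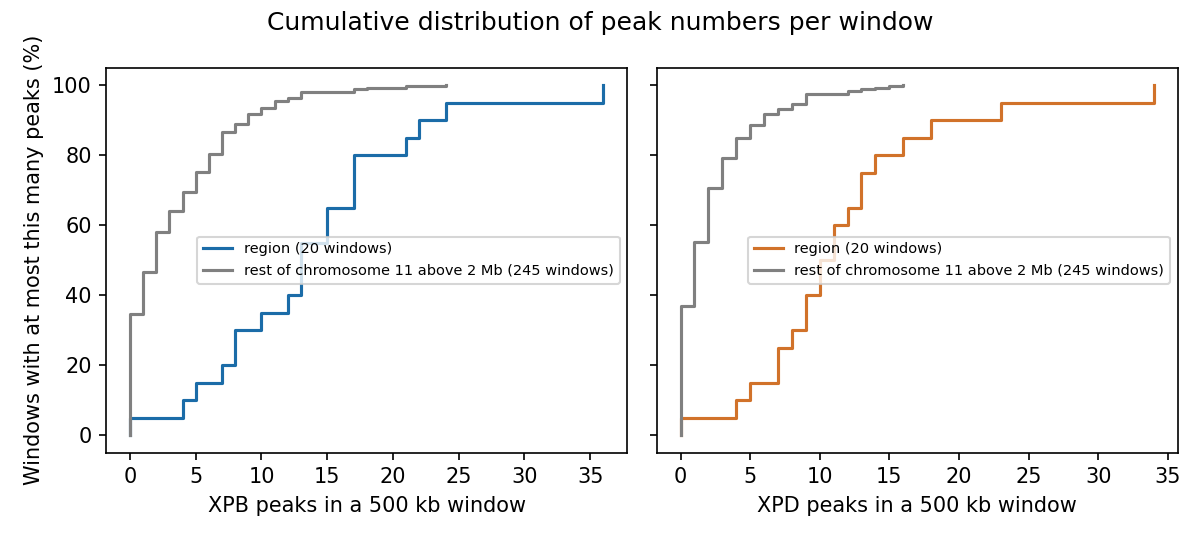
Percentage of 500 kb windows that hold at most the number of peaks on the horizontal axis, for XPB (left) and XPD (right), with 20 windows in the region and 245 in the rest of chromosome 11 above 2 Mb. The curve of the region lies to the right of the rest in both lists, with medians of 13 against 2 XPB peaks and 10.5 against 1 XPD peak.

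In blocks of 2 Mb, the block at chr11:64000001-66000000 held the most peaks and the most overlapping peaks of both lists. It held 98 XPB peaks and 87 XPD peaks, 35.4% and 37.2% of the region's peaks. In the other blocks there were 33 to 57 XPB and 28 to 43 XPD peaks. Scores of 300 or more were reached by 35 XPB peaks and 21 XPD peaks of the dense block, 35.7% and 24.1% of its peaks. The block before it, chr11:62000001-64000000, had 12 and 10 such peaks, 23.5% and 23.3%, and no other block had more than 8 XPB or 4 XPD. The first and last blocks had the fewest such peaks. There were 4 XPB and 2 XPD in chr11:60000001-62000000, and 4 and 3 in chr11:68000001-70000000. The tallest summits had 16 fragments for XPB and 19 for XPD in the first, and 23 and 20 in the last. Without the dense block the region still had 22.4 XPB peaks per Mb, 3.36 times the rest (2.85 to 3.96), and 18.4 XPD peaks per Mb, 4.24 times the rest (3.50 to 5.09).

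Neighbouring summits were closer together in the region than in the rest. The median gap between successive XPB summits was 14.8 kb (95% interval 12.7 to 18.5) in the region and 43.4 kb (38.9 to 49.2) in the rest. Between XPD summits it was 17.7 kb (14.1 to 20.6) and 65.4 kb (49.8 to 77.6). Of the 277 XPB summits, 163 had a neighbour in their own list at 10 kb or less, 58.8% (52.8 to 64.7), against 34.6% (31.4 to 38.0) in the rest. For XPD this held for 121 of 234 summits, or 51.7% (45.1 to 58.3), against 27.1% (23.4 to 31.1). A denser list has closer neighbours by construction, so these shares restate the density in part. Gaps were also found inside the region, and the widest was nearly the same in both lists. It ran 482.1 kb from the XPB summit at 62791723 to the one at 63273845, and 492.5 kb from the XPD summit at 62782106 to the one at 63274624. A second gap common to both lists lay between summits at 67513056 and 67777619 for XPB (264.6 kb) and at 67512813 and 67779129 for XPD (266.3 kb).

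Chaining summits of both lists over gaps of at most 10 kb gave 211 clusters in the region, of which 95 were single summits and 99 held both proteins. In the rest there were 858 clusters, of which 573 were single summits and 228 held both proteins. Clusters of 5 or more summits numbered 23 and took in 35.2% of the summits, compared with 24 such clusters and 11.9% of the summits in the rest. A fixed gap joins more summits where they are denser, so these figures too restate the density in part. The largest cluster ran from 65652075 to 65683359, with 12 XPB and 8 XPD summits in 31.3 kb and none above 27 fragments. The next largest had 15 summits each. The cluster from 62284328 to 62324153 had 10 XPB and 5 XPD summits and no summit above 19 fragments. By contrast, the cluster from 65239440 to 65266506, with 8 XPB and 7 XPD summits, reached 69 fragments. A short cluster of 4 XPB and 5 XPD summits within 5.84 kb, from 65184436 to 65190273, reached 66. Rich clusters were therefore of both kinds, with and without a tall summit.

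The first XPB summit inside the lower border was at 60611789, 611.8 kb from it, with 14 fragments and a score of 201.7. The last one outside was at 59578254, with 22 fragments and a score of 447.5, close to the 95th percentile of the rest (22 fragments and 450.7). The first XPD summit inside was at 60605140 (9 fragments, score 293.0), and the last outside was at 59786898 (11 fragments, score 156.0). At the upper border the last XPB summit inside was at 69920310 (13 fragments, score 225.7) and the first outside at 70025969 (10 fragments, score 189.7). For XPD these were at 69988784 (9 fragments, score 177.2) and 70052206 (11 fragments, score 202.2).

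The typical summit was no taller in the region than in the rest, although median scores over the whole region were higher. Summit height is the number of fragments piled up at the highest point of a peak, and the score is the caller's measure of significance, which rises as its p-value falls. The XPB summits had a median of 11 fragments (quartiles 9 and 13) in the region and 11 (10 and 14) in the rest. The XPD medians were 12 (11 and 15) and 13 (11 and 15). Scores in the region had medians of 199.6 (95% interval 189.9 to 214.2) for XPB and 198.1 (190.5 to 206.0) for XPD. In the rest the median scores were 185.8 (180.9 to 189.9) and 182.6 (179.0 to 188.5). Without the block at chr11:64000001-66000000 the region's median scores were 192.05 (182.44 to 206.26) for XPB and 194.7 (184.36 to 201.95) for XPD. These were still above the medians of the rest, but their intervals overlapped those of the rest. Peaks of the region were also somewhat wider, with medians of 906 bp (867 to 952) and 812.5 bp (785 to 840) for XPB, and of 1009 bp (956 to 1063) and 926 bp (894 to 950) for XPD.

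Strong peaks made up a larger part of the region's XPB list than of the rest. A score of at least 300 was found for 63 XPB peaks of the region, 22.7% (17.9 to 28.1), against a background of 14.4% in the rest and 14.3% in the whole series. For XPD there were 40 such peaks, 17.1% (12.5 to 22.5), against 10.2% in the rest and 11.9% in the series, and these intervals overlap slightly (the rest reached 13.1). Most of this lay in the dense block: without chr11:64000001-66000000 the shares were 15.6% (10.7 to 21.8) for XPB and 12.9% (7.96 to 19.4) for XPD. Summits of 20 or more fragments were not more frequent, with 6.14% for XPB and 6.41% for XPD in the region and 6.51% and 8.29% in the rest. Near the reporting threshold, at scores of 150 to 170, mean summit heights were 9.99 ± 2.29 fragments (SD over 77 peaks) for XPB in the region and 10.6 ± 2.37 (283 peaks) in the rest, and 11.4 ± 2.28 (72 peaks) and 12.2 ± 2.52 (192 peaks) for XPD. The means of the region were lower by 0.57 fragments for XPB and 0.83 for XPD.

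Only 4 sites in the region rose above 50 fragments, and each did so in both lists. The tallest was at chr11:62608215-62610349 for XPB, with 153 fragments, and at chr11:62608246-62610099 for XPD, with 222 fragments. Both peaks sat at the highest score in the files, 3100, and their summits, 62609258 and 62609256, lay 2 bp apart. This site ranked 18 by height in the whole XPB list and 9 in the whole XPD list. The site at chr11:65266329-65266798 (XPB) had 69 fragments for XPB and 62 for XPD, with summits 1 bp apart and scores of 1039 and 679.6. The site at chr11:62432289-62433683 (XPB) had 63 and 66 fragments, again with summits 1 bp apart and scores of 1535 and 1239. At chr11:65189953-65191124 (XPB) the heights were 53 and 66, the summits were 7 bp apart and the scores were 1382 and 1471. In the rest of the chromosome above 2 Mb the tallest summit had 45 fragments for XPB and 58 for XPD, so these 4 sites were above every summit there.

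Below these 4 sites heights dropped to 30 fragments or fewer. A peak 14.1 kb above the tallest site, at chr11:62622914-62623955, had 30 fragments in each list, and its XPB score of 624.0 was above its XPD score of 342.4. In the same cluster as the site of 69 fragments, a peak at chr11:65260872-65261813 had 28 fragments in each list. Its scores were 265.5 for XPB and 259.99 for XPD. The peak at chr11:64863178-64863857 had 28 fragments for XPB and 23 for XPD. The XPB peak at chr11:65682570-65685666 had 27 fragments over 3097 bp and, with 1615, the second highest XPB score of the region, where its XPD partner had 17 fragments and a score of 383.3. Both lists placed that summit at 65683359. Among the 8 tallest XPD summits were also chr11:67054981-67056187, with 25 fragments against 22 for XPB, and chr11:64007597-64008552, with 25 against 10.

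**Figure D3:**
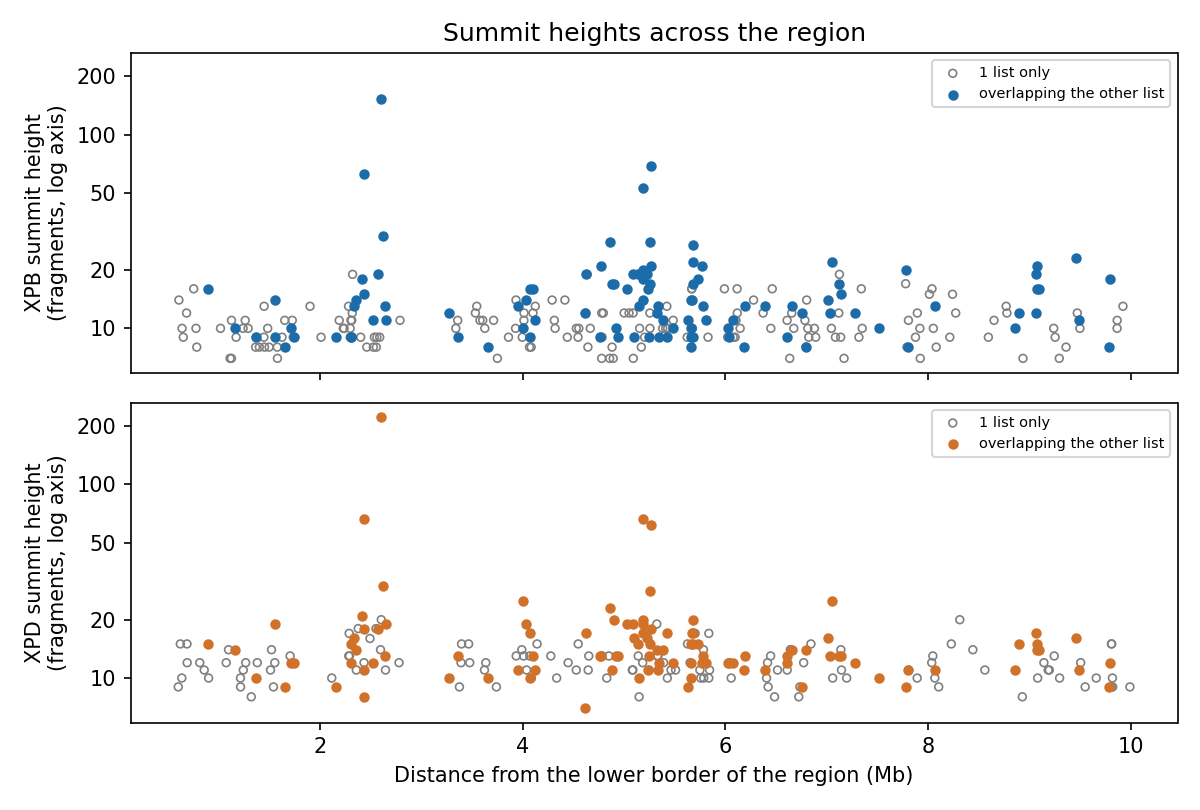
Summit height in fragments (log axis) of every XPB peak (upper panel, 277) and XPD peak (lower panel, 234) of the region, by distance in Mb from its lower border; filled points overlap the other list and open points are found in 1 list only. The 4 sites above 50 fragments appear at the same places in both panels, and no peak found in 1 list only exceeds 20 fragments.

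Overlap between the proteins was more frequent in the region for XPB peaks. Of the 277 XPB peaks, 108 overlapped an XPD peak by at least 1 bp, 39.0% (33.2 to 45.0), against a background of 25.2% in the rest and 26.6% in the series. Of the 234 XPD peaks, 107 overlapped an XPB peak, 45.7% (39.2 to 52.3), against 37.9% in the rest and 38.7% in the series. The XPD interval overlapped that of the rest (33.7 to 42.1). With the stricter rule of summits within 250 bp the XPB shares were 23.8% (18.9 to 29.3) in the region and 18.4% (15.8 to 21.3) in the rest, with intervals that overlap. The XPD shares were then 28.2% in each. XPD peaks were also 5.39 times as dense in the region, and the part of that density in the overlap was not tested.

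The overlap was concentrated in the crest of the region. In chr11:65000001-65500000, 22 of the 36 XPB peaks and 22 of the 34 XPD peaks overlapped the other list, and in the next window 14 of 21 and 12 of 23 did. For the dense 2 Mb block the shares were 52.0% (41.7 to 62.2) for XPB and 56.3% (45.3 to 66.9) for XPD. At the start of the region, chr11:60000001-62000000, they were 21.1% (9.55 to 37.3) and 25% (10.7 to 44.9). Without the dense block the XPB share was 31.8% (25.1 to 39.2) and the XPD share 39.5% (31.5 to 47.8), and both intervals then included the share of the rest.

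Stronger peaks were more often in both lists, in the region as in the rest. In the region the XPB share was 18.7% (12.6 to 26.2) at scores under 200, 42.7% (31.3 to 54.6) from 200 to 300 and 79.4% (67.3 to 88.5) at 300 and over. The rest had 12.8%, 26.9% and 73.5% in the same classes. For XPD the region had 26.2%, 52.8% and 92.5%, and the rest 23.8%, 52.5% and 87.0%. Giving the rest the region's mix of score classes raised its XPB share from 25.2% to 30.4% and its XPD share from 37.9% to 43.4%. In these terms most of the XPD difference, and a smaller part of the XPB difference, went with the higher scores in the region.

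**Figure D4:**
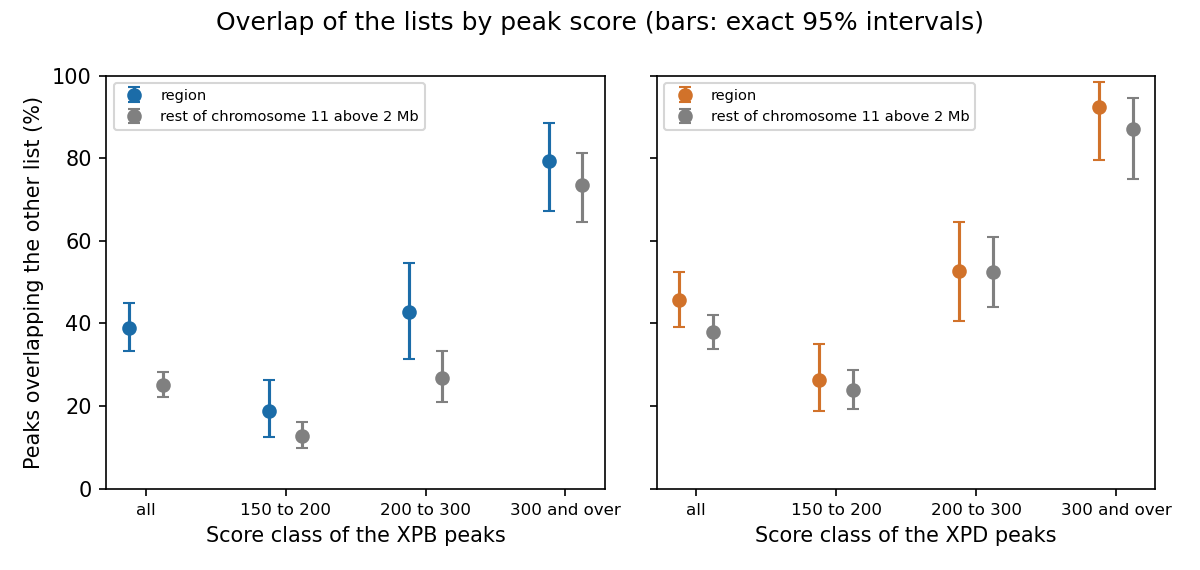
Percentage of XPB peaks (left) and XPD peaks (right) that overlap the other list, for all peaks and in 3 score classes; coloured points are the region, grey points the rest of chromosome 11 above 2 Mb, and bars are exact 95% intervals. The region lies above the rest among all XPB peaks (39.0% against 25.2%), while the XPD points of the middle class nearly coincide (52.8% and 52.5%).

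Peaks found in a single list had lower median heights and scores than shared peaks, in the region as in the rest. The 169 XPB peaks without an XPD partner had a median height of 10 fragments and a median score of 180.1, against 13 fragments and 269.3 for the 108 with a partner. The 127 XPD peaks without a partner had medians of 12 fragments and 176.9, against 13 and 247.1. Scores of 300 or more were reached by 13 of these 169 XPB peaks and 3 of these 127 XPD peaks, compared with 31 of 609 and 7 of 330 in the rest. By score, the first single-list XPB peak was chr11:65667630-65668953, inside the largest cluster, with 16 fragments and a score of 419.6. It was followed by chr11:61728896-61730960 (11 fragments over 2065 bp, score 419.5), chr11:67124216-67125220 (19 fragments, score 396.1) and chr11:62323256-62325118 (19 fragments, score 372.4). On the XPD side the first was chr11:62599475-62600496, 9.47 kb below the tallest site, with 14 fragments and a score of 354.2. The next were chr11:62495555-62496752 (16 fragments, score 313.6), chr11:66513691-66515518 (11 fragments, score 303.1) and chr11:60604490-60606524 (9 fragments, score 293.0).

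Single-list peaks of the region were often near a peak of the other protein. An XPD summit lay within 5 kb of 56 of the 169 single-list XPB peaks, 33.1% (26.1 to 40.8), compared with 12.2% (9.66 to 15.0) in the rest. An XPB summit lay within 5 kb of 47 of the 127 single-list XPD peaks, 37.0% (28.6 to 46.0), compared with 18.2% (14.2 to 22.8). The median distance from a single-list peak to the nearest summit of the other list was 9.84 kb for XPB and 8.13 kb for XPD, and 35.2 and 22.7 kb in the rest. These distances fall with density, as the spacing within each list does.

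At shared sites the summits of the proteins lay about as close together as elsewhere. Pairs were formed from peaks whose largest overlap was with one another. The region had 104 such pairs, with a median summit distance of 108.5 bp (95% interval 69 to 231). The rest had 200 pairs with a median of 76 bp (55 to 100), and the series 5536 pairs with 97.5 bp. Summits were within 100 bp in 51 pairs of the region, 49.0% (39.1 to 59.0), and in 57.5% (50.3 to 64.4) of the pairs in the rest. For 28 pairs in which each peak scored 300 or more the median was 50.5 bp (7 to 211). Such pairs had 58.5 bp (28 to 407) in the rest and 49 bp in the series. For 9 pairs with at least 20 fragments in both lists the median was 7 bp (1 to 56). It was 28 bp (12 to 47) for 20 such pairs in the rest and 18.5 bp in the series. Fragments were selected at 400 to 700 bp, which bounds the resolution of such distances.

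Heights of paired peaks followed each other. Spearman's rho between XPB and XPD heights was 0.59 across the 104 pairs and 0.64 across the 200 pairs of the rest, as a description across peaks of the same 2 libraries. On the log2 scale the XPD height over the XPB height had a median of 0.10 (0.00 to 0.18) in the region and 0.11 in the rest and in the series, without correction for depth. Among the 9 pairs with at least 20 fragments in both lists, the tallest site was farthest from the series' median ratio of such pairs, at a log2 ratio of 0.54 (counting interval 0.23 to 0.84). The other 3 pairs named by distance from that median had intervals that included 0: chr11:65189953-65191124 at 0.32 (-0.23 to 0.87), chr11:64863178-64863857 at -0.28 (-1.15 to 0.56) and chr11:67054858-67056532 at 0.18 (-0.70 to 1.08). The first was picked as an extreme of 9, and its interval was not adjusted for that.

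**Figure D5:**
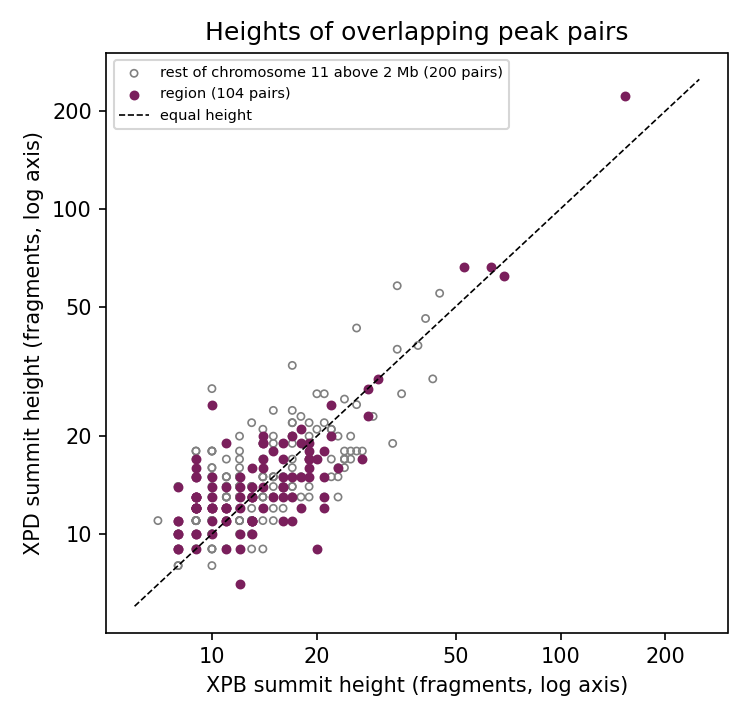
XPD against XPB summit height in fragments (log axes) for paired peaks; filled points are the 104 pairs of the region, open points the 200 pairs of the rest of chromosome 11 above 2 Mb, and the dashed line marks equal height. The 4 filled points above 50 fragments lie along the line beyond nearly all others, and the tallest, at 153 and 222, lies above it.

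Over all listed peaks, the region held relatively more XPD peaks than the rest of the chromosome. The direction was the same in the other settings given below, but their intervals included 1. There were 1.18 XPB peaks for each XPD peak in the region (277 and 234) and 1.53 in the rest (814 and 531). The ratio of these ratios was 0.77 (95% counting interval 0.63 to 0.95). XPD peaks outnumbered XPB peaks in 4 of the 20 windows: chr11:60500001-61000000 with 9 XPD and 8 XPB peaks, chr11:63000001-63500000 with 7 and 4, chr11:65500001-66000000 with 23 and 21, and chr11:69500001-70000000 with 11 and 5. Among windows with a peak of either list, these were 4 of 19 in the region, and 33 of 175 in the rest, a like share. Among peaks scoring at least 200 the ratio of ratios was 0.73 (0.53 to 1.00), and at 300 or more 0.73 (0.42 to 1.25), and both intervals include 1. With both lists cut to the same length it was 0.86 (0.68 to 1.08), and that interval includes 1 too. This comparison was added after the data were seen. The depth of each library is unknown from the lists.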

How the data were processed

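Per the submitters' processing notes, the aligner was Bowtie 0.12.7 (build hg19) and the peak caller MACS 1.4, with 1 list per ChIP library. Whether the input served as control, and other caller settings, are not given in the sources used here. The deposited peak score is a MACS score (lowest value 150), and the deposited summit signal is an unscaled fragment pileup height. Read depth is unknown. The ChIP libraries were preamplified for 12 cycles and the input for 9, per the labels.

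Summits were joined to peaks by name and counted in 500 kb windows, 2 Mb blocks and 10 Mb tiles, with 1-based positions. Peaks were shared when they overlapped by at least 1 bp, and pairs were mutually largest overlaps. Shares carry exact Clopper-Pearson intervals, density ratios exact conditional binomial intervals and medians order-statistic intervals, all at 95%. The overlap and pairing functions were tested on lists with planted overlaps. The intervals of density ratios and medians were tested on simulated independent draws, which lack the clustering of peaks. Named peaks were the 8 tallest and 4 highest-scoring single-list peaks per list, the border peaks and, among pairs with at least 20 fragments in both lists, the 4 with ratios farthest from the series' median. Named windows were the 4 richest and 3 poorest per list. Members, rules and gene lists were chosen with earlier results of these data known. The gene lists were not applied to peaks, for want of hg19 annotation. Python 3.11.15, numpy 2.4.6, pandas 2.3.3, scipy 1.17.1 and matplotlib 3.10.9 were used.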

Additional observations from a re-analysis of the deposited data

How the results depend on the processing

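Of 52 alternatives, 30 gave a value inside the 95% interval and 22 a value outside, and none changed the side on which the region lay from the rest in density. The density ratio (4.16 for XPB and 5.39 for XPD) was 2.98 and 3.86 when windows with no peak of either list were left out of the rest, 5.13 and 7.03 at scores of at least 200, 6.59 and 9.07 at scores of at least 300, and 3.36 and 4.24 without the densest 2 Mb block. The shared percentage (39.0 for XPB and 45.7 for XPD) became 30.3 and 35.9 when overlap had to be 50% of each peak, 23.8 and 28.2 when summits had to be no more than 250 bp apart, and 46.0 and 70.0 when only peaks scoring 300 or more were kept. The rest of the chromosome gave 21.6 and 33.1, 18.4 and 28.2, and 30.8 and 66.7 under these rules, so the XPD values were close to it. It moved for XPB alone to 48.5 with lists of equal length (33.7 in the rest) and to 31.8 without the densest 2 Mb block, and for XPD alone to 55.4 when only peaks scoring 200 or more were kept (49.7 in the rest). At scores of at least 200 the median XPB height became 12.5 fragments, the median scores 275.1 and 259.5 and the median spacing 27608 bp for XPB and 26204 bp for XPD, since fewer peaks are then counted. Alternatives without the 2 Mb block, and those for the ratio of XPB to XPD peaks, were added after the data were seen. No paired analysis was possible because each antibody has 1 library and no test was made. Unknown depth and the lowest listed score of 150 limit what absence from a list can show.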

Other observations

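Set against other parts of the genome, the region was among the richest in peaks. Of 300 tiles of 10 Mb on the autosomes, it ranked 5 by XPB peaks and 3 by XPD peaks. Only the tiles at chr3:120000001-130000000, with 536 XPB and 391 XPD peaks, and chr3:190000001-200000000, with 311 and 280, held more XPD peaks. Among the 110 tiles with at least 50 peaks in each list, the ratio of XPB to XPD peaks had a median of 1.46 (quartiles 1.37 and 1.57, range 1.11 to 2.14), and the region's 1.18 was the lowest but 3. The lower ratios were 1.11 at chr3:190000001-200000000, 1.13 at chr9:130000001-140000000 and 1.16 at chr20:50000001-60000000. These tiles were compared after the data were seen, and no test was made.

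Among taller summits, peaks of the region had higher median scores than those of the rest in the same height class, and among low summits scores were closer. XPB summits of 13 to 19 fragments had a median score of 309.6 in the region (69 peaks, median width 879 bp) and 207.9 in the rest (232 peaks, 679.5 bp). Summits of 20 or more had 624.0 (17 peaks) and 416.7 (53 peaks). XPD summits of 13 to 19 fragments had 220.2 (95 peaks) and 190.9 (230 peaks), and those of 20 or more had 398.8 (15 peaks) and 306.7 (44 peaks). The class of 20 or more has no upper limit, so its heights were not alike. In the region 4 of its 17 XPB and 4 of its 15 XPD summits reached 50 fragments, against 0 of 53 and 2 of 44 in the rest. For 6 to 9 fragments the XPB medians were 179.6 and 167.0 and the XPD medians 169.5 and 169.0, and for 10 to 12 fragments 189.6 and 184.1 for XPB and 184.4 and 173.2 for XPD. All 17 XPB summits of 20 or more fragments in the region overlapped an XPD peak, compared with 36 of 53 in the rest. For XPD summits of that class the shares were closer, with 13 of 15 (86.7%) in the region and 36 of 44 (81.8%) in the rest.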
